A study of Mus musculus with 6 samples.

Results

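Collagens are the triple-helical proteins of the extracellular matrix, and each gene encodes 1 chain that assembles with others of its type. The 44 collagen chain genes were taken from the 41709 genes of the deposited table by name (Col, a type number, the letter a and a chain number), and all 44 had enough reads to be tested. They were grouped by what their proteins build into 8 fibrillar chains, 9 chains of basement membranes, 6 fibril-associated chains of the FACIT class, 7 chains of cartilage, 4 transmembrane chains and 10 chains of beaded filaments, networks and other forms. The cartilage group collects chains by tissue, so that the fibrillar chains Col2a1, Col11a1 and Col11a2 and the FACIT chains of type IX stand there.

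The libraries came from mice on a zinc-deficient diet between weeks 4 and 8 of life and from mice on a zinc-sufficient control diet over the same weeks, with 3 libraries per diet, numbered 4, 5 and 6. The tissue, named nasal mucosa in the labels, was the back of the nasal septum and held bone as well as mucosa. Sequencing started from 500 ng of total RNA, and ribosomal RNA was removed. The labels state neither strain nor sex, and do not say that each library is a separate mouse. The tests therefore compare the diets with the spread among 3 libraries, part of which may be technical.

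Fibrillar collagens give connective tissue and bone their tensile strength. Type I makes up most of the protein of bone matrix, type III accompanies it in soft, stretchable tissue, and type V starts and narrows the fibrils. Type IV collagen forms the sheet under epithelia and around vessels, FACIT chains sit on the surface of fibrils, and types II, IX, X and XI build cartilage. Collagen chains are hydroxylated, folded and trimmed by dedicated enzymes, and lysyl oxidases then crosslink the finished fibrils.

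The regulatory sequence just upstream of 4 chains is shown because these chains carry the comparisons: Col3a1 had the smallest edgeR p of the chains, Col1a2 and Col5a1 encode its fibril partners, and Col4a1 is a chain of the ubiquitous type IV network. Each line gives the 250 bases before the RefSeq start, on the gene's own strand, from build GRCm38.p6. Capitals mark the letters TATAAA of the TATA box, CCAAT of the CCAAT box and GGGCGG of the GC box, searched on both strands, so a box on the other strand appears as its reverse complement, and none of the motifs contains another.
Col3a1, chr1:45311288-45311537, plus strand: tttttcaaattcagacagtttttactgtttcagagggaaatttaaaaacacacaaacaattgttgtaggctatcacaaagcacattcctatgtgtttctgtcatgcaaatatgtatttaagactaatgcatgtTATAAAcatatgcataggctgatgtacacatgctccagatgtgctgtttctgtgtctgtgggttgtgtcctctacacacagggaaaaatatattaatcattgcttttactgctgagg
Col1a2, chr6:4505368-4505617, plus strand: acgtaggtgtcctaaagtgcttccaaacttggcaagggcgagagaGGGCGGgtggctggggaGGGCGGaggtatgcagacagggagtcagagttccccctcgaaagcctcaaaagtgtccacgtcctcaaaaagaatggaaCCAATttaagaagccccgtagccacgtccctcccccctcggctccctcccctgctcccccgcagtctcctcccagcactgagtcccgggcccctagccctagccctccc
Col5a1, chr2:27886175-27886424, plus strand: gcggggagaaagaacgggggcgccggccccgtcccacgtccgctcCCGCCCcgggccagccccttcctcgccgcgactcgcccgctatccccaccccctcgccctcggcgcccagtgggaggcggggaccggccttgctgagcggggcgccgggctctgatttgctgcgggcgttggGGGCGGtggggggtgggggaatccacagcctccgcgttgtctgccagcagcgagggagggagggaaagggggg
Col4a1, chr8:11312827-11313076, minus strand: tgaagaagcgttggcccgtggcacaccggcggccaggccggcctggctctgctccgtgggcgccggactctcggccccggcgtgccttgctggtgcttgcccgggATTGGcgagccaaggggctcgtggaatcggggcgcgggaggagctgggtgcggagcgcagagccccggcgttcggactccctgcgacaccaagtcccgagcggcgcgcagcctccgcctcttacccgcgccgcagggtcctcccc
The Col3a1 window was AT-rich, with 35.2% G and C and a TATAAA. The windows of Col1a2, Col5a1 and Col4a1 held 62.0%, 76.4% and 74.4% G and C and no TATAAA. Sequence outside the windows was not searched. RefSeq windows were matched for 35 of the 44 chains, and TATAAA stood in 5 of these genes, CCAAT in 13 and GGGCGG in 21. Among 32851 mouse promoter windows of the same length, 12.4% held TATAAA, 33.8% held CCAAT and 32.7% held GGGCGG. A gene was counted if any of its windows held the motif (38 windows for 35 genes), while these shares count single windows. By class, TATAAA stood in 1 of 6 matched fibrillar, 2 of 5 cartilage and 2 of 4 transmembrane genes. CCAAT stood in 5 of 8 basement membrane, 2 of 6 fibrillar, 2 of 5 cartilage and 2 of 4 transmembrane genes. It also stood in 1 of 3 FACIT genes and 1 of 9 in the remaining class. These small class counts were not tested. A match is a match of letters and not a measured site.

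The zinc-deficient libraries held 14397826, 16163294 and 18727863 counts and the control libraries 13059798, 11731999 and 16748740. Collagen chains took 1.80%, 1.17% and 1.02% of the counts in zinc-deficient libraries 4, 5 and 6, against 2.54%, 1.75% and 2.25% in control libraries 4, 5 and 6. The mean shares were 1.33% ± 0.414 and 2.18% ± 0.399 (SD, n = 3 each), and the diets overlapped because zinc-deficient library 4 lay above control library 5. In bulk tissue fewer cells of a type and less RNA per cell cannot be told apart.

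Levels were compared between genes per length, as deposited RPKM (reads scaled to gene length and library depth). Col1a1, the larger share of type I collagen, stood at 461 ± 176 RPKM in zinc-deficient and 795 ± 230 RPKM in control libraries (mean ± SD, n = 3 each) and was gene number 23 of the whole table by mean RPKM. Its partner Col1a2 averaged 116 ± 39.3 RPKM in zinc-deficient libraries and 191 ± 54.0 RPKM in control libraries. Col10a1, the chain of hypertrophic cartilage, came next over all libraries, with 50.03 ± 7.82 RPKM in zinc-deficient and 61.5 ± 27.3 RPKM in control libraries, and its diets overlapped. Col3a1 averaged 27.6 ± 1.35 RPKM in zinc-deficient and 74.7 ± 33.5 RPKM in control libraries, and Col2a1, the type II chain, 40.0 ± 16.3 and 36.0 ± 16.0 RPKM. The order from Col10a1 through Col3a1, Col2a1 and Col11a2 rests on differences smaller than the spread between libraries. At the low end lay Col19a1, Col6a5 and Col6a6, with means over all 6 libraries of 0.0757, 0.0732 and 0.0631 RPKM.

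**Figure D1:**
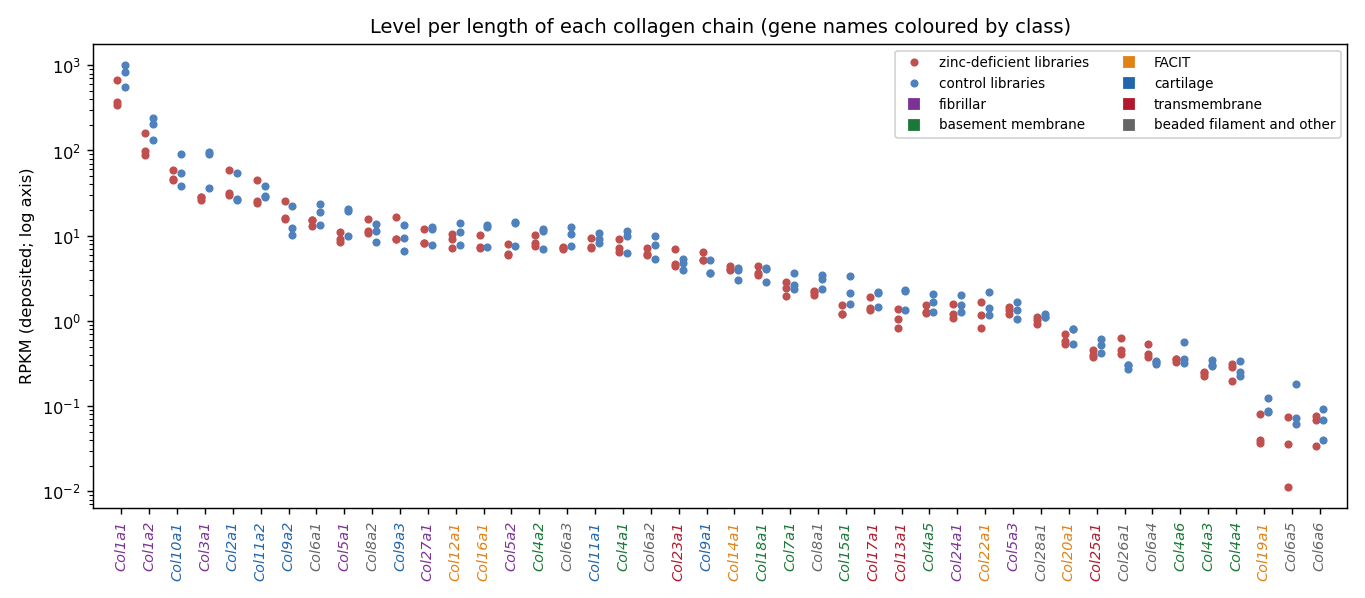
Deposited RPKM of each of the 44 collagen chains on a log axis, 1 point per library, zinc-deficient (red) left of control (blue), with gene names coloured by class. Col1a1 and Col1a2 stand above the other chains in both diets, and Col3a1 has its 3 zinc-deficient points below its 3 control points.

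No collagen chain passed edgeR's quasi-likelihood test at an adjusted p under 0.05, and 22 of the 18427 tested genes (0.119%) did, 0.0326% of all tested genes being lower and 0.0868% higher. At an unadjusted p under 0.05, 12 of the 44 chains were lower in zinc-deficient libraries and 1 was higher, where 6.46% of all tested genes were lower and 6.40% higher at that threshold. Fitted log2 fold changes (zinc-deficient over control) were below 0 for 35 chains and above 0 for 9, against 50.3% of all genes below 0 and 49.7% above. The median log2 fold change was -0.37 over the chains and -0.0021 over all tested genes. Leaving out control library 6 took the collagen median to -0.23, and leaving out zinc-deficient library 4 took it to -0.52. Level ranges in CPM (TMM-scaled counts relative to library size) did not overlap between the diets, with every zinc-deficient library lower, for 10 chains, against 9.31% of all genes. Of these chains, Col5a2, Col13a1 and Col6a1 overlapped in deposited RPKM, so their separation depended on the scaling. Col26a1 was the 1 chain with every zinc-deficient library higher, as were 9.56% of all genes.

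DESeq2 called 6 chains, all lower in zinc-deficient libraries (Col3a1, Col5a2, Col5a1, Col15a1, Col6a3 and Col13a1). Of the 17393 genes to which it gave an adjusted p, it called 1.98%, with 0.828% lower. Limma-voom called 0 chains and 0.0326% of genes, 0.0163% lower. An FDR p-value under 0.05 was listed in the authors' deposited table for 5 chains, namely Col5a2, Col3a1, Col15a1, Col5a1 and Col13a1, where 2.04% of the genes with such a value did. Leaving out control library 5 took the number of chains lower at an unadjusted p under 0.05 in edgeR from 12 to 19, and leaving out zinc-deficient library 4 took it to 21. The number fell to 10 without control library 4 or zinc-deficient library 5, and to 9 without control library 6 or zinc-deficient library 6.

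**Figure D2:**
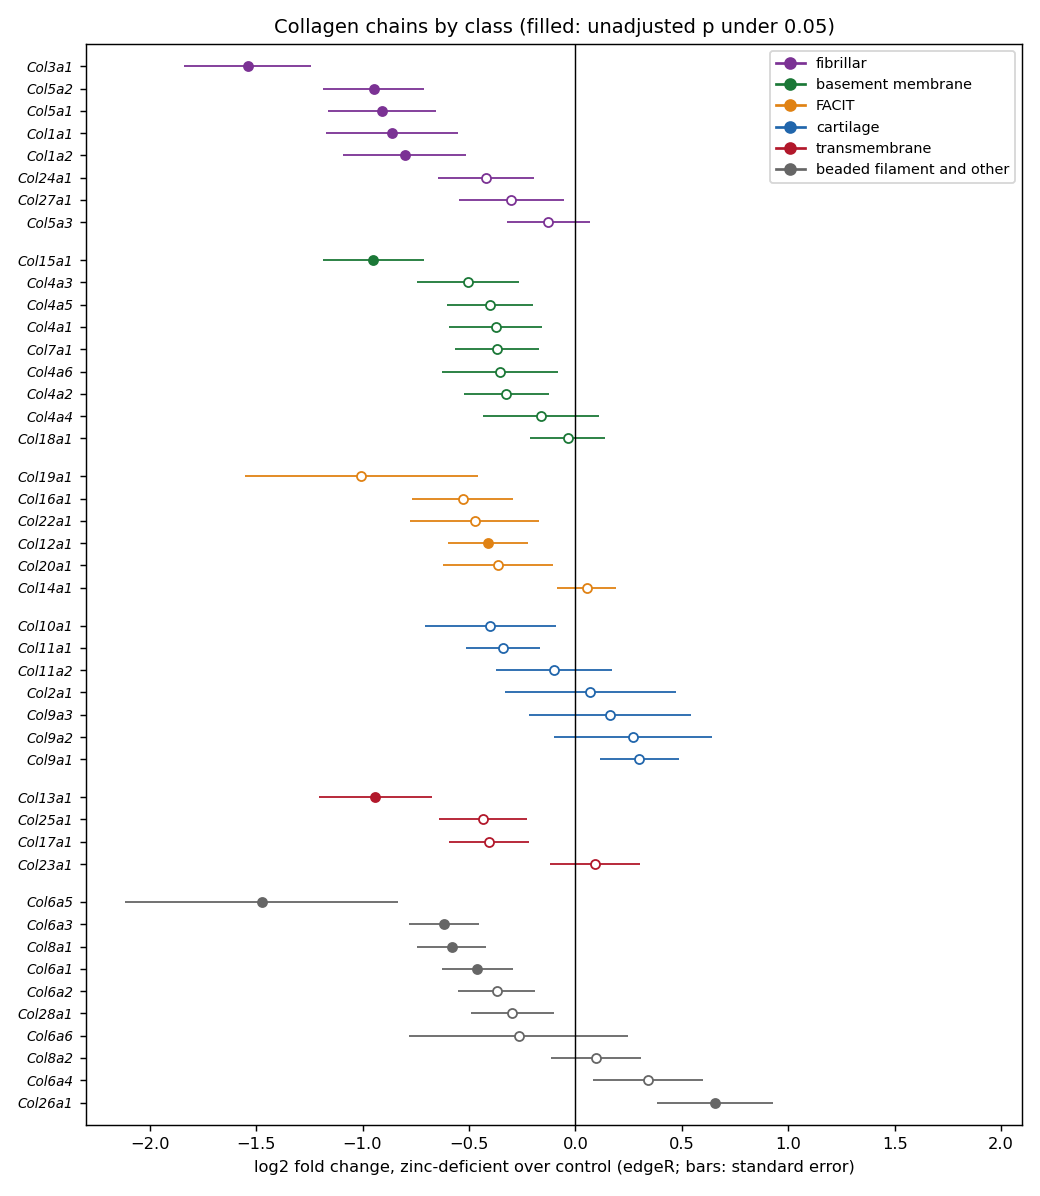
Log2 fold change of each collagen chain, zinc-deficient over control, from edgeR with its standard error as a bar, grouped by class, with filled points at an unadjusted p under 0.05. All 8 fibrillar and all 9 basement membrane chains lie below 0, and the 7 cartilage chains lie on both sides.

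The 8 fibrillar chains were all lower on average in zinc-deficient libraries, with a median log2 fold change of -0.83. Col5a3 was the exception when control library 6 was left out. Unadjusted p was under 0.05 for 5 of the 8 chains, and for 2 the diets did not overlap in CPM. Of all tested genes, 6.46% were lower at that threshold and 9.31% had every zinc-deficient library lower. Summed over the class, the level was 14631, 7987 and 7194 CPM in zinc-deficient libraries 4, 5 and 6, against 22243, 13039 and 19552 CPM in control libraries 4, 5 and 6. Zinc-deficient library 4 was above control library 5, so the sums overlapped.

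Col3a1, the single chain of the type III homotrimer, had the smallest p of all 44 chains in the edgeR fit on diet. Its log2 fold change was also the lowest in that fit, while the low-count Col6a5 was lower without control library 6 (-1.68, against -1.31 for Col3a1) and without zinc-deficient library 5 (-2.21, against -1.54). The Col3a1 level was 537, 528 and 512 CPM in zinc-deficient libraries 4, 5 and 6, against 1831, 778 and 1972 CPM in control libraries 4, 5 and 6. The zinc-deficient libraries lay close together at 526 ± 12.8 CPM, the control libraries spread over 1527 ± 653 CPM (SD, n = 3 each), and the diets did not overlap. The log2 fold change was -1.54 ± 0.30 (SE), with an edgeR adjusted p of 0.107. Without control library 5, the lowest control, the log2 fold change was -1.86 and the edgeR adjusted p 0.00507. Leaving out any other library raised the edgeR adjusted p, to between 0.188 (without control library 4) and 0.312 (without zinc-deficient library 5). DESeq2 gave an adjusted p of 2.68e-07 and limma-voom one of 0.123, and the FDR p-value in the authors' deposited table was 0.00368.

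Col1a1 and Col1a2 encode the type I heterotrimer. Col1a1 was at 9163, 4654 and 4192 CPM in zinc-deficient libraries 4, 5 and 6, against 13463, 7906 and 11343 CPM in control libraries 4, 5 and 6. Col1a2 was at 4203, 2312 and 2025 CPM in the zinc-deficient libraries, against 6052, 3608 and 5232 CPM in the control libraries. In both genes zinc-deficient library 4 was above control library 5 and the diets overlapped. The log2 fold changes were -0.86 ± 0.31 and -0.80 ± 0.29 (SE), each with an edgeR adjusted p of 0.297.

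Type V collagen, built from Col5a1 and Col5a2 (with Col5a3 in some tissues), begins fibril assembly with type I. Col5a1 was at 198, 148 and 132 CPM in zinc-deficient libraries and at 360, 186 and 350 CPM in control libraries, overlapping between zinc-deficient library 4 and control library 5. Its log2 fold change was -0.91 ± 0.25 (SE; edgeR adjusted p = 0.217). Col5a2 was at 161, 109 and 107 CPM in zinc-deficient libraries and at 282, 161 and 283 CPM in control libraries. In CPM its highest zinc-deficient value was marginally below its lowest control value. In RPKM the Col5a2 diets overlapped, at 7.96 in zinc-deficient library 4 against 7.66 in control library 5. Its log2 fold change was -0.95 ± 0.24 (SE; edgeR adjusted p = 0.182). Col5a3 had a log2 fold change of -0.13, with 19.2, 18.9 and 15.03 CPM in zinc-deficient libraries and 18.5, 15.7 and 23.7 CPM in control libraries. Col24a1 and Col27a1, the remaining chains of the class, had log2 fold changes of -0.42 and -0.30 and overlapping diets.

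Beside the fibrillar chains, the marker list of osteoblasts and osteocytes was lower in zinc-deficient libraries. All 11 of its genes were measured, all 11 had log2 fold changes below 0 (median -0.68) and 6 had an unadjusted edgeR p under 0.05. Of all tested genes, 50.3% were below 0 and 6.46% were lower at that threshold. Their summed level was 276 to 310 CPM in zinc-deficient libraries and 384 to 669 CPM in control libraries, without overlap, also when its most abundant gene Bglap was left out. The fibroblast list, 8 of 10 genes tested and Tcf21 at 0 in every library, summed to 469 to 511 CPM in zinc-deficient and 364 to 607 CPM in control libraries, with a median log2 fold change of 0.02. Of its genes Pdgfra (-0.39) and Cd34 (-0.56) were lower and Pi16 (0.60) higher at an unadjusted edgeR p under 0.05, and Gsn held most of the sum. Without Gsn the fibroblast sums were 126 to 142 CPM in zinc-deficient and 127 to 180 CPM in control libraries. The part of these cell types in the fibrillar values was not tested.

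**Figure D3:**
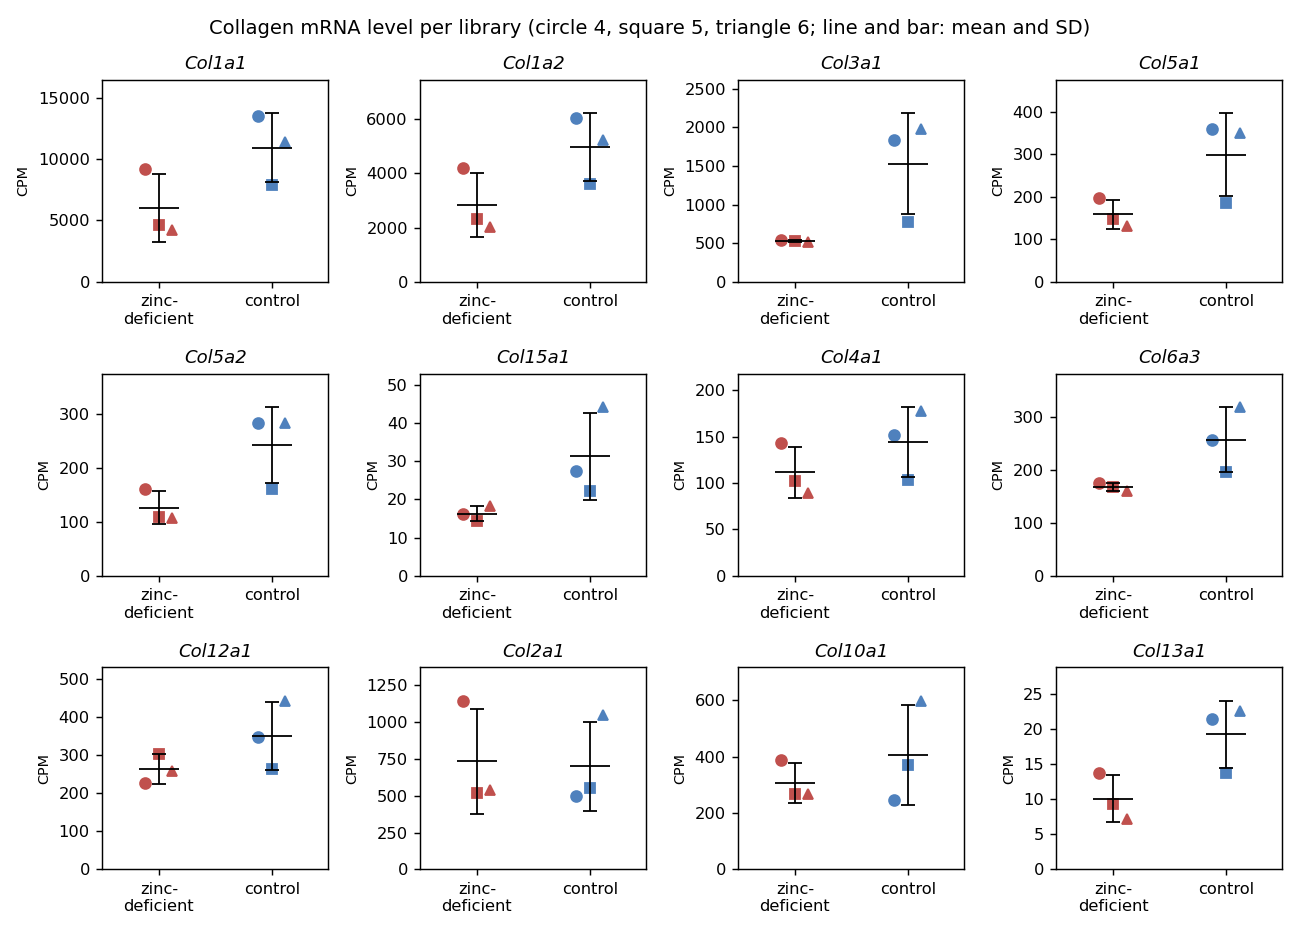
CPM per library of 12 collagen chains, zinc-deficient (red) left of control (blue), with circles for library 4, squares for library 5 and triangles for library 6, and mean and SD as lines. Col3a1 lies at 512 to 537 CPM in the zinc-deficient libraries and at 778 to 1972 CPM in the control libraries, while Col2a1 overlaps.

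The 9 basement membrane chains all had log2 fold changes below 0, with a median of -0.37. At an unadjusted p under 0.05, 1 was lower, against 6.46% of all tested genes. Without control library 6 the class median was -0.19, and Col4a4 and Col18a1 were above 0. The chain with the small p, Col15a1, belongs to the multiplexins that link basement membranes to the stroma, and was at 16.1, 14.3 and 18.2 CPM in zinc-deficient libraries, against 27.5, 22.2 and 44.2 CPM in control libraries. Every zinc-deficient library was below every control library, and the log2 fold change was -0.95 ± 0.24 (SE; edgeR adjusted p = 0.175). Without a low-count filter, edgeR called it at an adjusted p of 0.0413. Col18a1, the other multiplexin and the source of endostatin, was at 65.1, 45.6 and 47.6 CPM in zinc-deficient libraries and 57.5, 43.6 and 61.0 CPM in control libraries, a log2 fold change of -0.04. On the opposite strand it overlaps Slc19a1, which had 429 counts per library on average against 800 for Col18a1, and reads of the pair may be mixed.

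Type IV collagen comes as gene pairs that lie head to head: Col4a1 and Col4a2 on chromosome 8, Col4a3 and Col4a4 on chromosome 1, and Col4a5 and Col4a6 on the X chromosome. In the files' coordinates the first pair overlap by 22 bases and the starts of Col4a3 and Col4a4 lie 71 bases apart. Col4a1, of the ubiquitous network, was at 143, 102 and 89.7 CPM in zinc-deficient libraries and 152, 103 and 178 CPM in control libraries. Col4a2 was at 140, 103 and 91.9 CPM in zinc-deficient libraries and 154, 102 and 164 CPM in control libraries, so that both chains overlapped between the diets. Their log2 fold changes were -0.37 ± 0.22 and -0.32 ± 0.20 (SE; edgeR adjusted p = 0.503 and 0.527).

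Col4a3, of the specialised network with Col4a4 and Col4a5, was at 4.71, 4.80 and 4.45 CPM in zinc-deficient libraries and 6.07, 6.60 and 7.13 CPM in control libraries. Its diets did not overlap, and its log2 fold change was -0.50 ± 0.24 (SE; edgeR adjusted p = 0.409). Col4a4, its neighbour, was at 4.35, 6.24 and 5.66 CPM in zinc-deficient libraries and 4.82, 5.89 and 7.46 CPM in control libraries, and the diets overlapped. The X-linked Col4a5 was at 21.9, 16.1 and 15.6 CPM in zinc-deficient libraries and 22.9, 18.9 and 28.6 CPM in control libraries. Col4a6 was at 6.04, 5.03 and 5.24 CPM in zinc-deficient libraries and 5.83, 5.57 and 9.36 CPM in control libraries. The log2 fold changes of this pair were -0.40 and -0.35, and that of Col7a1, the anchoring fibril of skin and mucosa, was -0.37, all with overlapping diets. The summed level of the 6 type IV chains was 213 to 320 CPM in zinc-deficient and 242 to 395 CPM in control libraries.

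Markers of cells that rest on basement membranes were read beside these chains, and none had an edgeR adjusted p under 0.05. Of all tested genes, 50.3% were below 0 and 6.46% were lower at an unadjusted p under 0.05. All 10 endothelial and pericyte genes had log2 fold changes below 0 (median -0.19), 2 of them with an unadjusted p under 0.05. Their sum was 550 to 593 CPM in zinc-deficient and 640 to 732 CPM in control libraries, without overlap. That separation rested on Rgs5, a pericyte gene: without it the sums were 251 to 277 CPM in zinc-deficient and 252 to 331 CPM in control libraries. Of the 6 basal epithelial genes 5 were below 0 (median -0.38), 3 with an unadjusted p under 0.05, Krt5 was at 0.08, and none was separate between the diets. The basal sum was 690 to 771 CPM in zinc-deficient and 775 to 900 CPM in control libraries. Without Dst, a linker protein that made up most of it, the sums overlapped at 161 to 187 CPM in zinc-deficient and 165 to 253 CPM in control libraries. The 8 olfactory neuron genes went the other way, at 7945 to 9624 CPM in zinc-deficient and 5882 to 7145 CPM in control libraries. The part of these lists in the basement membrane values was not tested.

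Of the 6 FACIT chains, 5 had log2 fold changes below 0, with a median of -0.44, and 1 had an unadjusted p under 0.05. Col12a1, found on fibrils of tendon, ligament and periosteum, was at 227, 304 and 259 CPM in zinc-deficient libraries, against 347, 263 and 442 CPM in control libraries. Here zinc-deficient library 4 was the lowest and the diets overlapped, with a log2 fold change of -0.41 ± 0.19 (SE; edgeR adjusted p = 0.387). Col16a1, a minor chain near fibrils and basement membranes, was at 144, 93.8 and 88.6 CPM in zinc-deficient libraries and 173, 109 and 188 CPM in control libraries, a log2 fold change of -0.53. Col14a1, which binds fibrils through decorin, was at 58.3, 58.7 and 52.4 CPM in zinc-deficient libraries and 59.1, 46.0 and 57.9 CPM in control libraries, a log2 fold change of 0.05. Col22a1, of tissue junctions, and Col20a1 had log2 fold changes of -0.47 and -0.36, and Col20a1 overlaps 9230112E08Rik, which had more counts than it did. Col19a1, near the lowest level of all chains, rested on 16, 9 and 9 counts in zinc-deficient libraries and 16, 16 and 27 counts in control libraries. Its log2 fold change was -1.01 ± 0.55 (SE; edgeR adjusted p = 0.466). Its diets did not overlap in CPM, though the unscaled counts met at 16.

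The 7 cartilage chains had log2 fold changes on both sides of 0, from -0.40 to 0.30, with a median of 0.07 that ranged from -0.40 without zinc-deficient library 4 to 0.44 without control library 6. No chain had an unadjusted edgeR p under 0.05, and no chain had separate diets. Col2a1, the type II homotrimer of cartilage fibrils, was at 1142, 519 and 537 CPM in zinc-deficient libraries and 498, 549 and 1047 CPM in control libraries. Zinc-deficient library 4 and control library 6 were the high libraries, the diets overlapped, and the log2 fold change of 0.07 ± 0.40 (SE) changed sign when control library 4, control library 5 or zinc-deficient library 4 was left out. Col10a1 was at 389, 267 and 266 CPM in zinc-deficient libraries and 247, 370 and 598 CPM in control libraries, a log2 fold change of -0.40 that came to -0.0011 without control library 6.

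Col11a2, a chain of the thin cartilage fibril, was at 648, 329 and 309 CPM in zinc-deficient libraries and 399, 435 and 543 CPM in control libraries. Its partner Col11a1 was at 254, 175 and 167 CPM in zinc-deficient libraries and 238, 230 and 287 CPM in control libraries. Their log2 fold changes were -0.10 and -0.34. The type IX chains, which coat type II fibrils, all had log2 fold changes above 0: 0.30 for Col9a1, 0.27 for Col9a2 and 0.16 for Col9a3, of which Col9a2 and Col9a3 were below 0 without zinc-deficient library 4. Col9a1 was at 68.1, 49.1 and 47.9 CPM in zinc-deficient libraries and 38.0, 40.4 and 55.3 CPM in control libraries, with overlap. The summed cartilage class was highest in zinc-deficient library 4 (2805 CPM) and control library 6 (2782 CPM), and at 1484 to 1788 CPM in the other libraries. The 10 chondrocyte marker genes, none of them a collagen, summed to 1105 to 1234 CPM in zinc-deficient libraries and to 744, 1004 and 1609 CPM in control libraries 4, 5 and 6, with a median log2 fold change of -0.007.

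Transmembrane collagens are single-pass membrane proteins with shed collagenous ectodomains, and 3 of these 4 chains had log2 fold changes below 0. Col13a1, found at cell junctions and in bone, was at 13.7, 9.36 and 7.12 CPM in zinc-deficient libraries, against 21.3, 13.8 and 22.5 CPM in control libraries. The diets were separate by a narrow margin in CPM, and the log2 fold change was -0.94 ± 0.27 (SE; edgeR adjusted p = 0.207). In RPKM the Col13a1 diets overlapped, at 1.39 in zinc-deficient library 4 against 1.34 in control library 5. Col23a1 was at 84.9, 50.7 and 47.0 CPM in zinc-deficient libraries and 56.6, 50.1 and 64.4 CPM in control libraries, a log2 fold change of 0.09 with overlapping diets. Col17a1, of the hemidesmosomes of basal epithelial cells, was at 17.2, 15.9 and 21.1 CPM in zinc-deficient libraries and 26.4, 19.1 and 26.2 CPM in control libraries, a log2 fold change of -0.41 with overlap between zinc-deficient library 6 and control library 5. Col25a1, of neurons, had a log2 fold change of -0.43.

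Type VI collagen makes beaded filaments around cells, from Col6a1, Col6a2 and Col6a3 in its common form. Col6a1 was at 119, 127 and 124 CPM in zinc-deficient libraries and 168, 127 and 213 CPM in control libraries. Col6a2 lies on the same strand of chromosome 10 as Col6a1, with 1 listed gene between them. Its level was 104, 113 and 92.8 CPM in zinc-deficient libraries and 132, 97.7 and 171 CPM in control libraries. Col6a3 was at 175, 168 and 160 CPM in zinc-deficient libraries and 256, 197 and 319 CPM in control libraries. Col6a1 and Col6a3 did not overlap between the diets in CPM, with control library 5 nearest to the zinc-deficient libraries, and Col6a2 did. In RPKM Col6a1 overlapped too, at 15.4 in zinc-deficient library 6 against 13.3 in control library 5. The log2 fold changes were -0.46 ± 0.17 for Col6a1, -0.37 ± 0.18 for Col6a2 and -0.62 ± 0.17 for Col6a3 (SE; edgeR adjusted p = 0.300, 0.425 and 0.185). Summed, the 3 chains were at 378 to 408 CPM in zinc-deficient libraries and 422 to 703 CPM in control libraries.

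The other chains of this group include the network-forming type VIII. Col8a1 was at 37.3, 32.3 and 29.1 CPM in zinc-deficient libraries, against 50.1, 40.9 and 56.4 CPM in control libraries, without overlap and with a log2 fold change of -0.58 ± 0.16 (SE; edgeR adjusted p = 0.200). Its partner Col8a2 was at 150, 92.3 and 94.9 CPM in zinc-deficient libraries and 105, 82.4 and 127 CPM in control libraries, a log2 fold change of 0.10. Col26a1 was at 10.8, 7.05 and 6.18 CPM in zinc-deficient libraries and 4.51, 5.41 and 5.23 CPM in control libraries, all zinc-deficient libraries higher, with a log2 fold change of 0.66 ± 0.27 (SE; edgeR adjusted p = 0.346). It overlaps Gm20485 on the same strand, which had 12.5 counts per library on average against 98.7 for Col26a1. Col6a5 rested on 3, 23 and 12 counts in zinc-deficient libraries and 45, 16 and 22 counts in control libraries, and its log2 fold change was -1.47 ± 0.64 (SE; edgeR adjusted p = 0.365). Col28a1, Col6a4 and Col6a6 had log2 fold changes of -0.30, 0.34 and -0.27, and of these Col28a1 had every zinc-deficient library below every control library.

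Ratios of chains within a library, which do not depend on scaling between libraries, were computed for 14 pairs chosen for shared assembly or class. With 3 libraries per diet the exact permutation test cannot give a p below 0.1, and adjusted over the 14 ratios the values were 0.56 to 0.80. The Col1a1 to Col1a2 count ratio was 2.18, 2.01 and 2.07 in zinc-deficient libraries and 2.22, 2.19 and 2.17 in control libraries, the ranges overlapping narrowly. Per length, as RPKM, the ratio averaged 3.95 ± 0.161 in zinc-deficient and 4.15 ± 0.0538 in control libraries (SD, n = 3 each). The Col4a1 to Col4a2 count ratio was 1.02, 0.987 and 0.976 in zinc-deficient libraries and 0.987, 1.02 and 1.08 in control libraries, so the partners of the head-to-head pair stayed near equal counts in every library.

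The Col6a3 to Col6a1 count ratio was the 1 pair without overlap, at 1.48, 1.32 and 1.29 in zinc-deficient libraries and 1.52, 1.55 and 1.497 in control libraries. The difference in log2 ratio was -0.16, with a two-sided exact permutation p of 0.1, the smallest that 3 against 3 allows. Relative to Col1a1, Col3a1 was at 0.0586, 0.113 and 0.122 counts per count in zinc-deficient libraries and 0.136, 0.0984 and 0.174 in control libraries. The Col12a1 to Col1a1 ratio was 0.0248, 0.0652 and 0.0618 in zinc-deficient libraries and 0.0258, 0.0332 and 0.0389 in control libraries. In both, zinc-deficient library 4 had the lowest ratio of all 6 libraries. Differences in log2 ratio were -0.51 and 0.53, each with an exact permutation p of 0.4. Relative to Col2a1, the log2 ratios differed by -0.38 for Col10a1, -0.41 for Col11a1 and 0.25 for Col9a1, all with overlap. The 6 pairs not yet named overlapped as well, with differences in log2 ratio of -0.35 for Col4a3 to Col4a4, -0.14 for Col4a3 to Col4a1, -0.08 for Col4a5 to Col4a6, -0.06 for Col5a2 to Col5a1, 0.05 for Col5a1 to Col1a1 and 0.09 for Col6a2 to Col6a1.

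**Figure D4:**
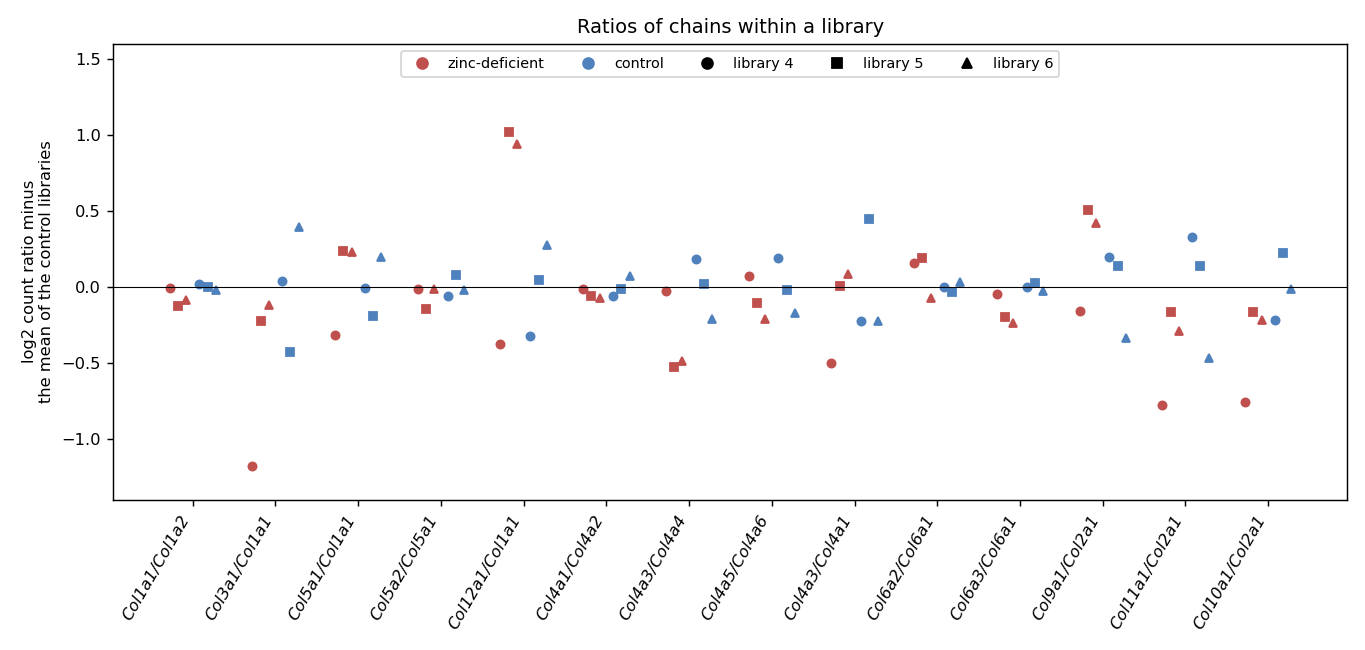
Log2 count ratio of 14 pairs of chains per library, minus the mean of the control libraries, zinc-deficient (red) left of control (blue), with circles for library 4, squares for library 5 and triangles for library 6. Col6a3 to Col6a1 is the pair whose 3 zinc-deficient points lie below its 3 control points, and for Col3a1 to Col1a1 zinc-deficient library 4 lies lowest.

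The proteins that fold, trim, crosslink and bind collagen were read in the same fit, and no gene of these lists had an edgeR adjusted p under 0.05. The counts below stand beside 50.3% of all tested genes below 0, and 6.46% lower and 6.40% higher at an unadjusted p under 0.05. Among 22 chaperones, hydroxylases and secretion factors, 17 had log2 fold changes below 0 (median -0.16) and 4 had an unadjusted p under 0.05, all lower. They were Creb3l1 (-0.52), a transcription factor of the endoplasmic reticulum in osteoblasts, Serpinh1 (-0.47), the collagen chaperone HSP47, Fkbp14 (-0.52), a prolyl isomerase, and Plod2 (-0.33), a lysyl hydroxylase of telopeptides. P4hb, the most abundant member, had a log2 fold change of -0.22 ± 0.21 (SE).

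Among 12 tested genes of propeptide processing and crosslinking, 10 were below 0 (median -0.38), with 5 lower and 1 higher at an unadjusted p under 0.05. Lox, the founding lysyl oxidase, was at 24.3, 30.3 and 24.4 CPM in zinc-deficient libraries, against 56.3, 35.0 and 50.6 CPM in control libraries, without overlap. Its log2 fold change was -0.84 ± 0.19 (SE; edgeR adjusted p = 0.136). Loxl2, of the same family, was at 48.2, 42.7 and 37.0 CPM in zinc-deficient libraries and 78.5, 55.9 and 84.0 CPM in control libraries, also without overlap, with a log2 fold change of -0.77 ± 0.17 (SE; edgeR adjusted p = 0.133). Bmp1 and Tll1, proteinases that remove the C-propeptide, had log2 fold changes of -0.40 and -0.66. Pcolce2, an enhancer of that cleavage, had one of 0.33 and was the member with the higher level at an unadjusted p under 0.05.

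Of 15 tested fibril-associated proteins, 14 were below 0 (median -0.45) and 7 were lower at an unadjusted p under 0.05. Of all tested genes, 50.3% and 6.46% were. Lum, a proteoglycan that spaces fibrils, was at 17.01, 26.5 and 27.2 CPM in zinc-deficient libraries and 53.3, 30.7 and 47.9 CPM in control libraries, without overlap. Its log2 fold change was -0.90 ± 0.23 (SE; edgeR adjusted p = 0.182). Sparc, the abundant collagen-binding protein of bone, was at 859, 940 and 879 CPM in zinc-deficient libraries and 1288, 949 and 1405 CPM in control libraries, a log2 fold change of -0.44 ± 0.18 (SE; edgeR adjusted p = 0.329). Thbs2, Aspn and Bgn had log2 fold changes of -0.74, -0.95 and -0.43.

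Of 10 collagen receptors, 9 were below 0 (median -0.22) and 3 had an unadjusted p under 0.05: Itga1 (-0.68) and Itga11 (-0.44), the collagen-binding integrin subunits, and Ddr2 (-0.41), a receptor tyrosine kinase for fibrillar collagen. Itgb1, their shared beta subunit and the most abundant, had a log2 fold change of -0.22. Of 16 partners in the basement membrane, 13 were below 0 (median -0.14) and 3 had an unadjusted p under 0.05, the laminin chains Lama4 (-0.38), Lama5 (-0.32) and Lama2 (-0.33). Hspg2, the perlecan core protein, was the most abundant, with a log2 fold change of -0.14.

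Marker genes of blood-forming cells had higher levels in zinc-deficient libraries, with overlap for the erythroid and B cell lists. The 9 neutrophil precursor genes summed to 230 to 342 CPM in zinc-deficient and 9.94 to 165 CPM in control libraries, and all 9 had log2 fold changes above 0 (median 1.97). The 9 tested erythroid genes summed to 1504 to 4246 CPM in zinc-deficient and 491 to 1801 CPM in control libraries, with all 9 above 0 (median 1.35). The 9 tested developing B cell genes were also all above 0 (median 1.74), and Igll1, of the surrogate light chain, passed the test (edgeR adjusted p = 0.0373) at 2.93 to 3.54 CPM in zinc-deficient and 0 to 0.311 CPM in control libraries. Their list summed to 199 to 297 CPM in zinc-deficient and 138 to 238 CPM in control libraries, mostly from Ebf1, and without Ebf1 to 16.6 to 77.1 CPM in zinc-deficient and 2.36 to 27.4 CPM in control libraries. With these marker genes removed before scaling, the collagen median stayed at -0.37, 13 chains were lower at an unadjusted p under 0.05, and edgeR called 0. The removed genes are few beside the 18427 tested, so this refit cannot show how other RNA of blood-forming cells bears on the scaling. The part of these cells in the collagen values, through scaling or otherwise, was not tested.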

How the data were processed

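RNA was measured in 6 mouse libraries, 3 per diet. The deposited table gives, per the file headers, total counts per gene as whole numbers and RPKM per library. It also holds the authors' deposited comparison of the diets, with log2 fold changes and p-values, which was quoted only where named. The sources used here name no aligner, genome build, annotation or strand setting. Coordinates of genes are those of the files. Promoter windows came from RefSeq on GRCm38.p6 and were matched by symbol.

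Counts were tested with edgeR 4.0.16 (R 4.3.3): expression filter by group, TMM scaling, robust quasi-likelihood fit on diet, two-sided test, Benjamini-Hochberg adjustment over 18427 genes. Each standard error is the absolute log2 fold change divided by the root of the F statistic. CPM uses TMM-scaled library sizes. Alternatives used DESeq2 1.42.0, limma 3.58.1 (voom, and log2 of RPKM plus 1 or 0.1), other scalings, filters and each library left out. The edgeR script was tested on simulated data. Every pair of libraries on the same diet differed by more than sampling noise.

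Values per library are given for the 3 most abundant chains of each class by RPKM, up to 4 per class with the smallest unadjusted p under 0.05, and the chains of the ratios. From the pathway lists, up to 4 genes with an unadjusted p under 0.05 and the most abundant are named. Chains, classes and lists were chosen with earlier results of these data known, so the counts are descriptions.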

Additional observations from a re-analysis of the deposited data

How the results depend on the processing

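Of 683 values for single chains under the alternatives, 649 kept their direction and side of the threshold, and 33 of 44 chains kept their direction throughout. Genes called over the whole table, 22 in edgeR, numbered 172 without a low-count filter, 344 in DESeq2, 6 in limma-voom, and 10 and 7 in limma on log2 of RPKM plus 1 and plus 0.1. Collagen chains called, 0 in edgeR, numbered 1 without the filter (Col15a1) and 6 in DESeq2. Leaving out 1 library at a time gave 9 to 50 genes called, 0 to 1 chains called (Col3a1, without control library 5) and 9 to 21 chains lower at an unadjusted p under 0.05. The library numbers were not shown to pair the libraries: deviations from the diet means correlated at -0.048, 0.151 and 0.068 for numbers 4, 5 and 6, and zinc-deficient library 4 correlated best with control library 6 (0.0944). A fit with number as a replicate block called 153 genes and 3 chains (Col15a1, Col3a1 and Col5a2). Fold changes that changed sign when a library was left out ranged from -0.21 to 0.066 for Col18a1 (0.058 and 0.074 in the RPKM fits), -0.40 to 0.49 for Col2a1, -0.51 to 0.0035 for Col6a6, -0.26 to 0.44 for Col9a3, -0.053 to 0.12 for Col14a1, -0.16 to 0.27 for Col8a2, -0.52 to 0.090 for Col11a2, -0.29 to 0.027 for Col4a4, -0.26 to 0.056 for Col5a3 (0.000841 with RPKM plus 0.1), -0.22 to 0.25 for Col23a1 and -0.070 to 0.67 for Col9a2. The median ranged from -0.52 to -0.23 over all chains, and in the fit with number as a block Col6a5 was lower than Col3a1. Log2 ratio differences that changed sign ranged from -0.045 to 0.23 for Col5a1 to Col1a1, -0.17 to 0.012 for Col4a5 to Col4a6 and -0.25 to 0.088 for Col4a3 to Col4a1. The cause of these changes was not tested. The chains near 20 counts per library (Col6a5, Col6a6 and Col19a1) have the widest standard errors.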
